A study of Mus musculus with 18 samples.

Results

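Genes of the macrophages of the splenic red pulp and marginal zone were followed through 18 spleen transcriptomes: Spic, Vcam1, Cd5l, Adgre1, C1qa, C1qb, C1qc, Marco, Siglec1 and Csf1r. They were chosen by name, and all 10 were found among the 19323 gene symbols of the expression table and passed the filter on low values. The spleens came from ICR mice aged 10 weeks, with 3 libraries in each of 6 groups, and all the groups shared strain, age, tissue and extraction (freezing in liquid nitrogen, Trizol and a column). The control group and the AOS group (AOS at 10 mg/kg) received neither the diet nor streptozotocin. The other 4 groups had a high fat diet and streptozotocin (STZ, a toxin of pancreatic beta cells that is used to make rodents diabetic). Of these, HS had nothing further, HS_AOS had AOS at 10 mg/kg, HS_AOSFMT had a faecal microbiota transplant from donors given AOS at 10 mg/kg, and HS_conFMT had a transplant from control donors. The series was designed to look at the effect of such transplants on a spleen damaged by diet and STZ. The labels name AOS only by its letters.

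The spleen filters blood through its red pulp, where macrophages engulf aged red cells and return their iron to the circulation through ferroportin. Spi-C, an ETS transcription factor induced by haem, is needed for these cells to form, and F4/80 (Adgre1) and VCAM-1 (Vcam1) mark them. At the border with the white pulp, marginal zone macrophages carry the scavenger receptor MARCO, and a neighbouring layer of metallophilic macrophages carries sialoadhesin (Siglec1). All of these cells depend on the CSF1 receptor (Csf1r), and splenic macrophages are a main source of C1q, the recognition part of the classical complement pathway. Cd5l encodes AIM, a secreted scavenger protein that macrophages make under the control of liver X receptors. Some of these genes are not limited to macrophages: VCAM-1 is also made by stromal and activated endothelial cells, and CSF1R by monocytes.

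The 3 C1q genes lie side by side on the minus strand of chromosome 4 (mm10, GENCODE M21), C1qb at chr4:136880129-136886187, C1qc at chr4:136889804-136893065 and C1qa at chr4:136895917-136898803. Promoter windows from RefSeq's table for GRCm38.p6 were read for 5 of the 10 genes (C1qb, C1qc, Cd5l, Marco and Spic). No window was read for the rest, whether or not RefSeq holds one. The 250 bases before the RefSeq starts of C1qb (chr4:136886201-136886450) and C1qc (chr4:136892915-136893164) are printed. They were chosen because the RNAs of these neighbours varied almost in parallel (below), with RefSeq starts 6714 bases apart. Positions below are counted from the RefSeq starts, which are not always those of GENCODE. By GENCODE, C1qc reaches to 136893065, so that part of its window lies inside the gene. Both run 5′ to 3′ on the minus strand, and the capitals mark GAGGAA or its reverse complement TTCCTC, the core letters bound by PU.1, the ETS factor of the myeloid lineage.
C1qb: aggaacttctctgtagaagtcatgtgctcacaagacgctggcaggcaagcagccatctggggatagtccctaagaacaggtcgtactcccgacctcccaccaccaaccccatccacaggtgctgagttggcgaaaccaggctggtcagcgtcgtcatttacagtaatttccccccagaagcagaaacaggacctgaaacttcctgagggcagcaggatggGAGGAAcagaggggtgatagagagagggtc
C1qc: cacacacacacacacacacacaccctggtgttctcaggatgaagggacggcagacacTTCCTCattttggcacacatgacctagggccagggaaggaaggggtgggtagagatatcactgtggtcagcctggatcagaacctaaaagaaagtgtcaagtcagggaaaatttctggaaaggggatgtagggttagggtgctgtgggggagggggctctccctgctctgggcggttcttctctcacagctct
In C1qb the letters stood at −30 to −25 from the start on the gene's own strand, and in C1qc at −193 to −188 on the opposite strand. Marco held them at −146 to −141 on its own strand and Cd5l at −66 to −61 on the opposite strand. No match was found in the Spic window (chr10:88683024-88683273), which lies wholly inside Spic as GENCODE gives it (chr10:88674772-88685015). On either strand, 23.3% of 32851 RefSeq promoter windows cut to the same length held GAGGAA. Other letters searched on both strands were GGGNNTNCC (NF-kB), the interferon-stimulated response element, TGANTCA (AP-1) and TGCTGAC (MAF half-site), and none of these was in the 5 windows. They occur in 14.0%, 2.98%, 6.75% and 3.81% of all windows.

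Values are FPKM, the fragments mapped to a gene scaled by transcript length and library total. Tests were made with limma on log2(FPKM + 1) over 12967 genes (those reaching 1 FPKM in 3 or more libraries), so log2 changes below are on that scale and understate changes of low genes. A gene was called when its Benjamini-Hochberg adjusted p was under 0.05. Nothing in the labels says that the 3 libraries of a group are separate animals, and the p-values measure only the spread between these libraries. In bulk spleen, fewer macrophages and less RNA of a gene per macrophage cannot be told apart. B cell markers summed to between 1402 and 2684 FPKM, and Clec4f, which defines liver macrophages, was at 0 to 0.27 FPKM. The hepatocyte genes listed with Clec4f were present and varied between libraries. Alb ran from 2.84 FPKM in AOS 3 to 125.87 in HS_AOSFMT 1, Apoa1 from 0.9 to 30.38 and Ttr from 0.39 to 14.55. Some libraries stood apart in genes of other cells. Neutrophil genes summed to 15208 FPKM in control 1 against 552 to 4135 in the other 17 libraries. Pancreatic acinar genes summed to 20023 in HS 1 and 22420 in HS_AOS 1, against 19.9 to 3306 elsewhere. Haemoglobin genes made up 12.9% to 17.6% of summed FPKM in HS_AOSFMT, below every library of the control, HS and HS_AOS groups (21.45% to 34.35%), while HS_conFMT ran from 14.7% to 35.5% and AOS from 17.2% to 25.65%, both overlapping it.

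Per unit of transcript length, the C1q genes were the most abundant of the 10. The median over the 18 libraries was 122 FPKM for C1qa, 110 for C1qb and 107 for C1qc, followed by 96.2 for Vcam1, 58.2 for Csf1r, 51.6 for Marco and 46.3 for Spic. Cd5l (19.9), Adgre1 (11.9) and Siglec1 (6.62) were the lowest. The median of C1qa exceeded that of 95.7% of the genes tested and the median of Siglec1 that of 33.6%. Between the lowest and the highest library the level differed 1.56-fold for Csf1r and 3.9-fold for Siglec1, with the other 8 genes in between.

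**Figure D1:**
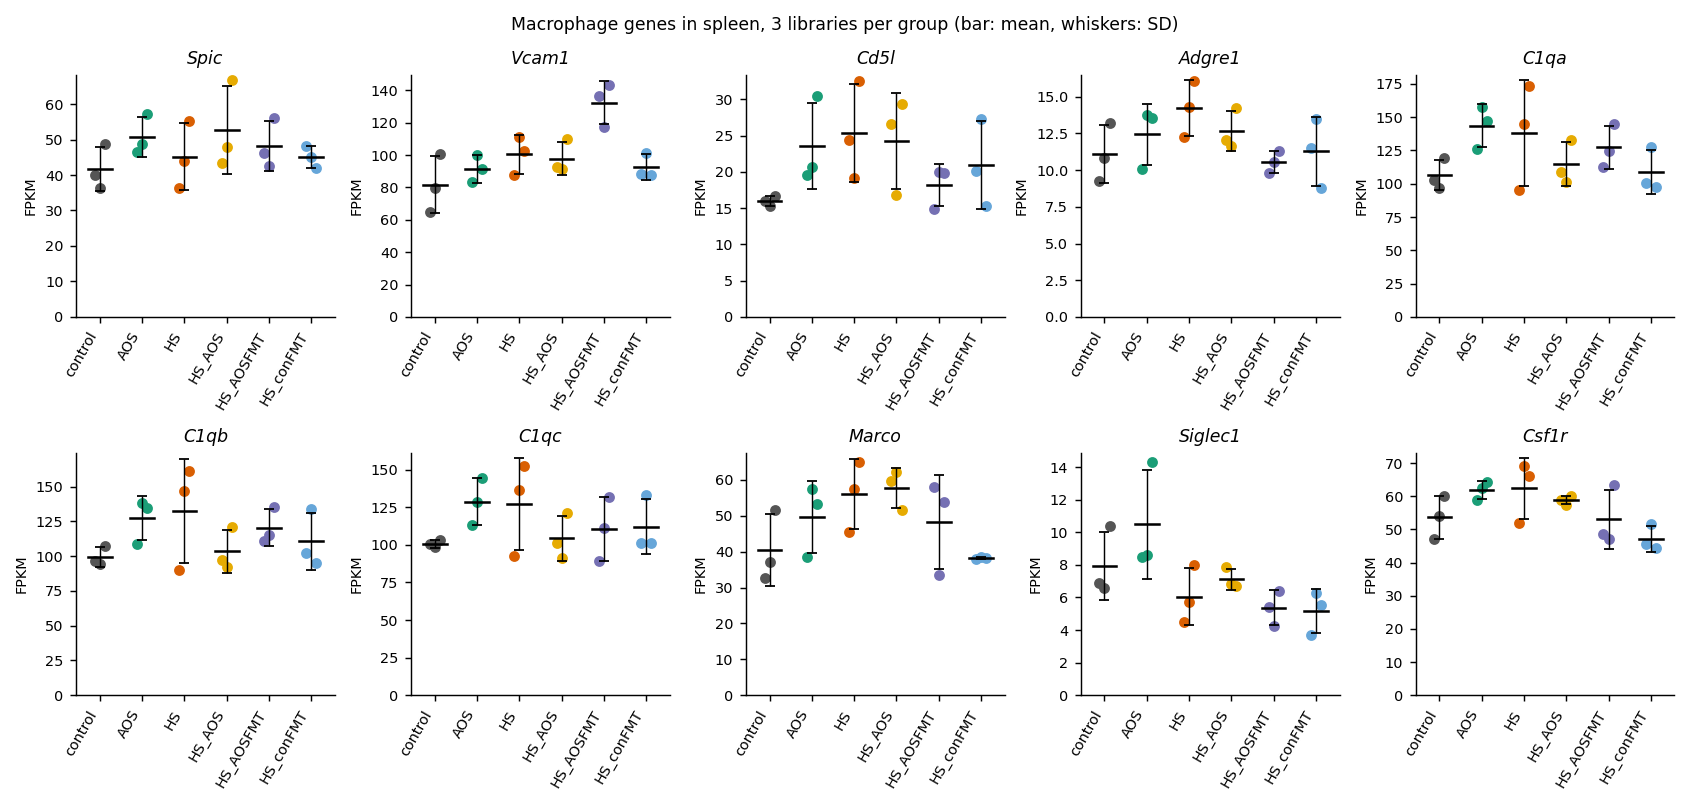
FPKM of each of the 10 macrophage genes (vertical axes, from 0) in the 6 groups (horizontal axes), one point per library, with the mean as a bar and the SD as whiskers. The 3 HS_AOSFMT points of Vcam1, from 118 to 143 FPKM, lie above all other Vcam1 points, whose highest is 111 FPKM.

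Vcam1, the adhesion molecule that holds leukocytes through the integrin VLA-4, was the gene of the 10 with the clearest group difference. Its levels were 65.1, 79.7 and 100.4 FPKM in the control libraries, 83.1, 100.03 and 91.2 in AOS and 87.8, 111 and 102 in HS. They were 92.5, 91.4 and 109.7 in HS_AOS, 88.2, 102 and 87.5 in HS_conFMT, and 136, 118 and 143 in HS_AOSFMT. All 3 HS_AOSFMT libraries lay above the other 15, and the other groups overlapped one another. Against HS_conFMT (92.4 ± 7.94 FPKM, SD, n = 3), Vcam1 rose in HS_AOSFMT (132 ± 13.3, n = 3) by a log2 change of 0.51 (SE 0.14; limma, adjusted p = 0.0444). It was the one gene of the 10 called in this comparison, in which 4.81% of all genes tested were called higher, 1.04% lower and 5.85% in either direction. Its unadjusted p, also the one of the 10 under 0.05, was read against 22.8% of all genes, and its lack of overlap against 21.5% higher and 7.27% lower. The adjusted p was 0.0343 without HS_conFMT 2 and between 0.0640 and 0.161 without any other single library of the 2 groups, so that the call was lost in 5 of 6 such fits. After rescaling to the sum without haemoglobin and acinar genes, the change was 0.42 (adjusted p = 0.126).

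Against control (81.7 ± 17.7 FPKM), in a comparison added after the data were seen, Vcam1 rose in HS_AOSFMT by a log2 change of 0.71 (SE 0.14; limma, adjusted p = 0.00717), a 1.62-fold ratio of the group means. The background was 9.68% of genes called higher and 31.9% with an unadjusted p under 0.05, which Vcam1 alone of the 10 had. The call held in all 6 fits without 1 library (adjusted p from 0.00136 to 0.0405), after rescaling (0.60, adjusted p = 0.0245) and without HS 1, HS_AOS 1 and control 1 (0.56, adjusted p = 0.0389). It was lost with the 2 groups fitted alone (adjusted p = 0.0779). Vcam1 also rose against AOS (91.4 ± 8.49 FPKM), by 0.53 (SE 0.14; limma, adjusted p = 0.0377; 4.44% of genes were called higher), a call lost in 5 of 6 fits without 1 library (adjusted p up to 0.155). Against HS (101 ± 11.9) the change was 0.40 (95% interval 0.10 to 0.69; adjusted p = 0.0848) and against HS_AOS (97.9 ± 10.3) it was 0.43 (adjusted p = 0.0684). Neither passed the threshold, though the libraries did not overlap. There, 8.08% and 6.42% of genes were called higher, and 30.8% and 24.4% were higher without overlap. These comparisons all use the same 3 HS_AOSFMT libraries. In an F test over the 6 groups, Vcam1 had an adjusted p of 0.0601, with 5.08% of all genes called.

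Markers of other cell types were read beside it, among them those of stromal and endothelial cells, which also make VCAM-1. The 11 stromal and endothelial markers summed to between 1723 and 2246 FPKM in HS_AOSFMT, 1719 and 2889 in HS_conFMT and 1000 and 1810 in control. None of the 11 was called against HS or against HS_conFMT, and 1 was called higher and 1 lower against control. Over all genes, 8.08% were called higher in HS_AOSFMT against HS, 9.68% against control, 6.42% against HS_AOS, 4.44% against AOS and 4.81% against HS_conFMT. T cell markers moved with the same libraries: 3 of 6 were called higher in HS_AOSFMT against HS and 6 of 6 against control. Against HS_AOS 3 were called higher, against AOS 1 and against HS_conFMT none (6 of 6 positive, limma, smallest adjusted p = 0.0786). Their summed levels were 368 to 443 FPKM in HS_AOSFMT and 183 to 280 in control. Of 8 dendritic cell markers, 4 were called higher in HS_AOSFMT against control (8 of 8 positive, median 0.49), 2 against AOS, 1 against HS, 1 against HS_AOS and none against HS_conFMT. Of 8 monocyte markers, 1 was called lower in HS_AOSFMT against each of HS, control, AOS and HS_AOS, where 1.15% to 2.34% of all genes were. Against AOS and against HS_AOS 1 was called higher, and against HS_conFMT none was called. The part of these cells in the Vcam1 result was not tested.

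Siglec1, the sialic acid receptor of metallophilic macrophages, showed the widest range. It was at 6.91, 6.56 and 10.4 FPKM in control, 8.49, 8.60 and 14.3 in AOS and 4.48, 5.72 and 7.97 in HS. It was at 7.87, 6.80 and 6.68 in HS_AOS, 5.43, 4.27 and 6.41 in HS_AOSFMT and 3.68, 6.29 and 5.56 in HS_conFMT. Of the 12 libraries with diet and STZ, 8 lay below the lowest of the 6 without (6.56). Siglec1 fell in HS_AOSFMT (5.37 ± 1.07, SD, n = 3) against AOS (10.5 ± 3.35) by 0.83 on the log2 scale (SE 0.23; limma, adjusted p = 0.0473), in an added comparison in which 1.6% of genes were called lower. The call was lost in every fit without 1 of the 6 libraries (adjusted p from 0.0669 to 0.183), and without AOS 3, the highest, the change was −0.60. For the 4 groups with diet and STZ together against control and AOS, also added, the change was −0.54 (95% interval −0.84 to −0.24; limma, adjusted p = 0.105; 0.532% of genes called). Against control alone, HS differed by −0.35 (interval −0.84 to 0.14; adjusted p = 0.882).

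Marco, the scavenger receptor of marginal zone macrophages, differed from Siglec1 in the order of its group means, being highest in HS_AOS where Siglec1 was highest in AOS. It was at 32.6, 37.1 and 51.7 FPKM in control, 38.4, 57.5 and 53.3 in AOS and 45.5, 57.5 and 64.9 in HS. It was at 59.7, 62.1 and 51.5 in HS_AOS, 58.0, 33.5 and 53.7 in HS_AOSFMT, and within 37.9 to 38.6 in all 3 HS_conFMT libraries. Those 3 lay below all HS libraries, with a log2 change of −0.52 (95% interval −0.97 to −0.08; limma, unadjusted p = 0.0234, adjusted p = 0.736), and in HS against control the change was 0.47 (interval 0.03 to 0.91; adjusted p = 0.756). The log2 ratio of Marco to Siglec1, looked at after their values were seen and therefore given with no test, was 2.35 ± 0.13 in control and 2.27 ± 0.43 in AOS (mean ± SD, n = 3). It was 3.23 ± 0.18 in HS, 3.02 ± 0.15 in HS_AOS, 3.15 ± 0.24 in HS_AOSFMT and 2.92 ± 0.39 in HS_conFMT. Of the 12 libraries with diet and STZ, 11 had a ratio above the highest of the 6 without (2.74). The lowest of the 12 was at 2.62.

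**Figure D2:**
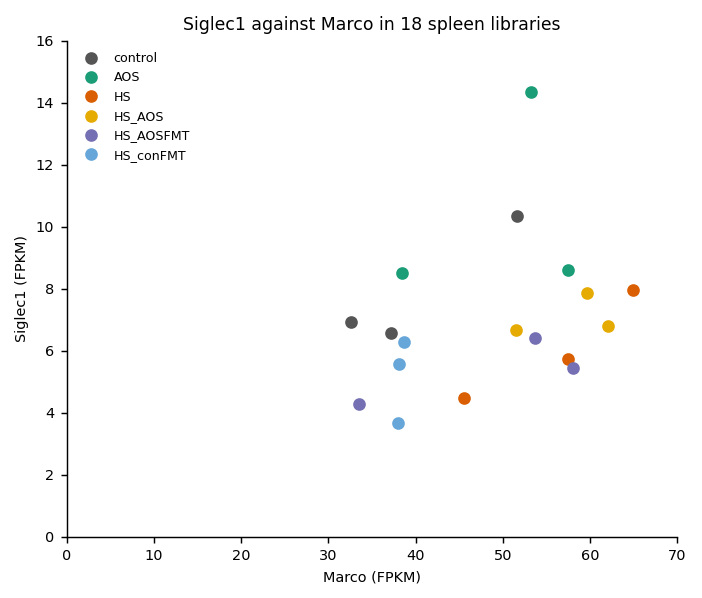
Siglec1 (vertical axis, FPKM) against Marco (horizontal axis, FPKM), one point per library, coloured by group. At a similar Marco level the control and AOS points lie higher, with Siglec1 up to 14.3 FPKM, than the points with diet and STZ, which reach 7.97 FPKM.

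Cd5l was at 16.03, 15.2 and 16.7 FPKM in control, 19.6, 20.7 and 30.4 in AOS and 24.4, 19.1 and 32.5 in HS. In HS_AOS it was at 26.6, 16.8 and 29.4, in HS_AOSFMT at 14.9, 20.02 and 19.8 and in HS_conFMT at 20.1, 27.4 and 15.4. Every AOS and every HS library was above every control library, and the SD was 5.98 FPKM in AOS and 6.77 in HS against 0.746 in control. The change was 0.60 in HS (95% interval 0.09 to 1.12; limma, unadjusted p = 0.0252, adjusted p = 0.737) and 0.51 in AOS (interval −0.01 to 1.02; adjusted p = 0.448).

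Spic, the transcription factor of red pulp macrophages, differed least between groups. Its group means ran from 41.7 ± 6.28 FPKM in control to 52.7 ± 12.4 in HS_AOS, a 1.26-fold range, and every pair of groups compared here overlapped. The lowest library was HS 1 at 36.3 and the highest HS_AOS 3 at 66.8. In HS against control the change was 0.10 (95% interval −0.26 to 0.46; limma, adjusted p = 0.972).

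Adgre1, which encodes F4/80, an adhesion G protein-coupled receptor, ran from 10.5 ± 0.746 FPKM in HS_AOSFMT to 14.2 ± 1.93 in HS. Its 3 HS_AOSFMT libraries (9.78, 10.6 and 11.3) were below the 3 HS libraries (12.3, 14.3 and 16.1), with a change of −0.39 (95% interval −0.73 to −0.06; limma, unadjusted p = 0.0243, adjusted p = 0.119). Control, at 9.24, 10.8 and 13.2, overlapped both. In that comparison 28% of all genes had an unadjusted p under 0.05, 1.15% were called lower and 7.64% were lower without overlap.

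Csf1r, the receptor for the growth factors CSF1 and IL-34, had the narrowest range. It was at 47.02, 54.0 and 60.02 FPKM in control, 58.9, 62.5 and 64.4 in AOS, 51.8, 69.2 and 66.2 in HS and 59.0, 57.5 and 60.2 in HS_AOS. In HS_AOSFMT it was at 48.8, 47.1 and 63.3, and in HS_conFMT at 45.6, 51.7 and 44.3, just below the lowest HS library. The change of HS_conFMT against HS was −0.39 (95% interval −0.65 to −0.13; limma, unadjusted p = 0.00637, adjusted p = 0.719), in a comparison with 1 gene of 12967 called (0.00771%). Of the ligands, Il34 rose in HS_AOSFMT (12.5, 10.0 and 11.3 FPKM) against HS (6.40, 8.13 and 8.85), by 0.49 (SE 0.13; limma, adjusted p = 0.0327). The call was lost after rescaling (0.38, adjusted p = 0.106) and in 4 of 6 fits without 1 library, among them that without HS 1 (0.37, adjusted p = 0.138). Csf1 ranged from 15.8 FPKM in HS 1 to 38.6 in control 3, and its change there was 0.37 (interval −0.19 to 0.94).

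The C1q genes encode the A, B and C chains, which assemble in equal numbers. C1qa was at 103, 97.0 and 119 FPKM in control, 126, 157 and 147 in AOS, 95.03, 145 and 174 in HS and 109, 101 and 133 in HS_AOS. It was at 113, 124 and 145 in HS_AOSFMT and 101, 128 and 97.7 in HS_conFMT. All 3 AOS libraries lay above all control libraries for C1qa, C1qb and C1qc alike, whereas HS held both the lowest and the highest library for C1qa and C1qb. The AOS changes were 0.43 for C1qa (95% interval 0.03 to 0.82; limma, unadjusted p = 0.0349, adjusted p = 0.408), 0.35 for C1qb and 0.35 for C1qc. With diet and STZ, the change of HS_AOS against HS had the opposite sign, at −0.23, −0.32 and −0.26. The difference between the 2 AOS effects (the interaction) was −0.66 for C1qa, −0.67 for C1qb and −0.61 for C1qc, with unadjusted p between 0.0228 and 0.0292 and adjusted p between 0.739 and 0.787, so none was called. One gene was called for this interaction, 0.00771% of those tested, and 5.96% had an unadjusted p under 0.05. All 10 interaction values were negative, while 50.5% of all genes had a positive one. Of 18 other red pulp macrophage genes tested, 10 had a positive value (median 0.05), and of 7 other marginal zone macrophage genes 1 had. None of 6 T cell markers (median −0.46) and none of 12 acinar markers had a positive value. Other lists went the other way. All 8 neutrophil markers (median 0.87), all 7 erythroid markers (0.57), all 6 haemoglobin genes tested (0.25) and 7 of 8 monocyte markers (0.49) had positive values. The 10 genes correlate with one another (below), so their signs are not independent. The HS values depend on HS 1, at 95.03, 90.1 and 92.9 FPKM for C1qa, C1qb and C1qc.

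Over the 18 libraries, C1qa and C1qb moved together with Pearson r = 0.96 and Spearman rho = 0.95, and r was 0.94 without HS 3 and AOS 2, the 2 libraries farthest from the median. C1qb and C1qc had r = 0.93 (rho = 0.87) and C1qa and C1qc r = 0.91 (rho = 0.87). For these 3 pairs the permutation p for r was 1e-05, the smallest that 100000 resamples can give, and 0.00015 after adjustment over 45 pairs. Between libraries, the log2 ratio of 2 C1q genes had an SD of 0.0754 to 0.112, against SDs of 0.24 to 0.265 for the log2 levels themselves. The values share library and scaling.

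**Figure D3:**
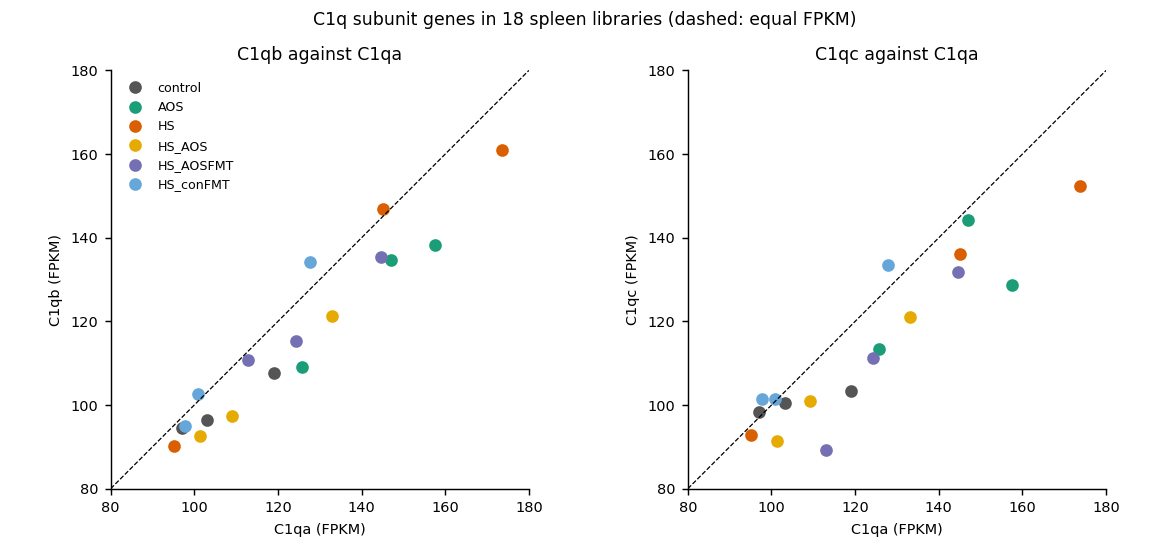
C1qb (left, vertical axis) and C1qc (right, vertical axis) against C1qa (horizontal axes), all in FPKM, one point per library, coloured by group, with a dashed line of equal FPKM. Most points lie just below the line, from HS 1 at 95.03 to HS 3 at 174 FPKM of C1qa, and the groups are mixed along it.

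Across all 45 pairs of the 10 genes, r was positive in 44 and its median was 0.51. In the permutation test, 19 pairs had an adjusted p under 0.05 by Pearson's r and 21 by Spearman's rho, but only 9 by Pearson's r without HS 3, the library with the highest level of 6 of the 10 genes. Adgre1 correlated with Csf1r (r = 0.73, rho = 0.76, adjusted p = 0.00518; 0.63 without HS 3 and HS_conFMT 3) and with Cd5l (r = 0.73, rho = 0.71, adjusted p = 0.00518; 0.63 without HS 3 and AOS 3). Vcam1 and Siglec1 gave the one negative pair (r = −0.15, rho = −0.19, adjusted p = 0.566), and Marco and Siglec1 were at r = 0.39 (rho = 0.35, adjusted p = 0.142). When each library was taken as its deviation from its group mean, the median r was 0.64, Vcam1 and Siglec1 came to 0.51, Marco and Siglec1 to 0.64 (permutation test, adjusted p = 0.04997), and Vcam1 and Csf1r went from 0.28 to 0.81. Within groups, then, the libraries high in one gene were mostly high in the others. The mean z score of the 10 genes was lowest in control 1 (−1.09), HS_conFMT 3 (−1.02) and control 2 (−0.88) and highest in HS 3 (1.38) and AOS 3 (1.07). Haemoglobin genes held 34.4%, 25.7% and 27.1% of summed FPKM in the first 3 of these and 27.5% and 17.2% in the last 2, and the part of this share was not tested.

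**Figure D4:**
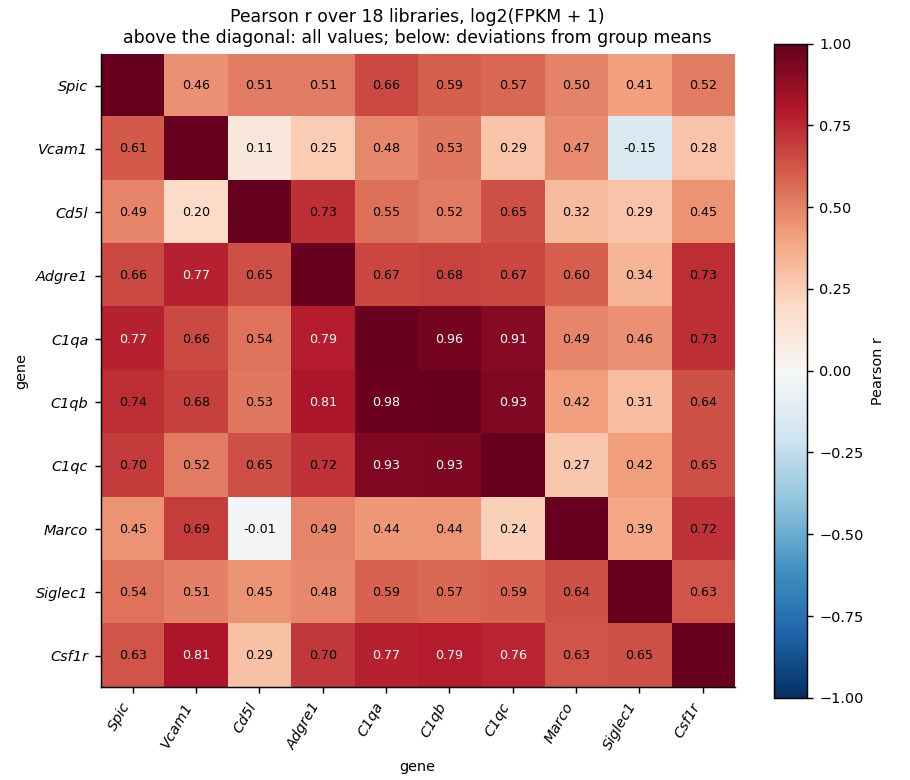
Pearson r between each pair of the 10 genes over 18 libraries on log2(FPKM + 1), with all values above the diagonal and deviations from the group means below it. The block of C1qa, C1qb and C1qc stands at 0.91 to 0.96 above the diagonal, and Vcam1 with Csf1r goes from 0.28 above it to 0.81 below it.

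Signs and medians over the 10 genes are given beside those over all genes. In HS against control, 9 of 10 changes were positive, with a median of 0.32 against −0.01 over all genes tested, of which 45.5% were positive. None of the 10 was called and 4 had an unadjusted p under 0.05 (Vcam1, Cd5l, Adgre1 and Marco), while 0.0154% of all genes were called and 6.4% had such a p. In AOS against control all 10 were positive, with a median of 0.32 against 0.05 over all genes (62.6% positive), none called (0.00771% of all genes) and 1 with an unadjusted p under 0.05 (11.3%). All 3 libraries of AOS exceeded all of control for 4 of the 10 (Cd5l, C1qa, C1qb and C1qc), against 11.6% of all genes, and none was lower without overlap (4.79% of all). In HS against control, Cd5l was the 1 gene higher without overlap (3.89% of all) and none was lower (4.65%). Both comparisons use the same control libraries, of which control 1 and control 2 had low values for these genes. Without control 1 the medians were 0.26 in both comparisons. Without single libraries they ran from 0.19 (without HS 3) to 0.47 (without HS 1) for HS, and from 0.22 (without AOS 3) to 0.44 (without AOS 1) for AOS. In other macrophage genes the medians were smaller. Of 18 other red pulp macrophage genes tested, 10 were positive in AOS against control (median 0.04) and 15 in HS against control (0.095). Of 7 other marginal zone macrophage genes, 5 (0.24) and 4 (0.17) were positive, and none of either list was called. Markers of other cells moved in AOS against control too, with no call among them. All 6 T cell markers (median 0.37) and all 6 B cell markers (0.18) had positive changes, while all 7 erythroid (−0.63) and all 8 neutrophil markers (−2.08) had negative ones. In HS against control, all 6 T cell markers (0.18) and all 12 acinar markers (4.601) were positive and all 8 neutrophil markers (−1.31) negative. The part of these shifts in the medians of the 10 was not tested.

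The comparisons of the treated groups with HS share the HS libraries with HS against control, where HS enters with the opposite sign, so the signs of the 2 are not independent. In HS_conFMT against HS, 9 of 10 changes were negative, with a median of −0.25 (−0.09 without HS 3) against 0.03 over all genes, of which 59.3% were positive. None was called, and 2 (Marco and Csf1r) had an unadjusted p under 0.05 against 6.32% of all genes. These 2 were lower without overlap (2.99% of all), and none was higher (7.78%). In HS_AOSFMT against HS, 8 of 10 were negative, with a median of −0.16 against 0.10 over all genes (67.4% positive), with 9.23% of all genes called. This median was 0.01 without HS 3 and −0.36 without HS 1, so that it rests on which HS libraries are kept. Against control, which does not use HS, 7 of 10 changes in HS_AOSFMT were positive (64.6% of all genes), with a median of 0.19 against 0.09 over all genes. In HS_AOS against HS, 3 of 10 were positive (63.2% of all genes) and the median was −0.07. By limma, 0 of 12967 genes were called. An unadjusted p under 0.05 was found for 674 genes (5.2%), none of the 10 among them. All 10 overlapped, against 8.21% of all genes higher and 2.74% lower without overlap. HS_AOSFMT against HS_conFMT gave 7 positive changes (61.9% of all genes) and a median of 0.11 against 0.06 over all genes, and the median of the 10 became −0.00077 without HS_AOSFMT 3 and 0.02 after rescaling. Over all 15 pairs of groups, Vcam1 was called in 3 and Siglec1 in 1, and the other 8 genes in none. Each of these calls was in a pair with HS_AOSFMT. There, 12% of all genes were called against control, 6.05% against AOS and 5.85% against HS_conFMT. By contrast, 0.0154% were called in HS against control and 0.00771% in AOS against control. With the groups of each gene ordered by mean, no 2 neighbours in the order were called different (50 pairs, limma, lowest adjusted p = 0.0848). These pairs were picked from the same values for lying next to each other, which makes calls unlikely. The same was not done for all genes, so no conclusion is drawn from it.

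**Figure D5:**
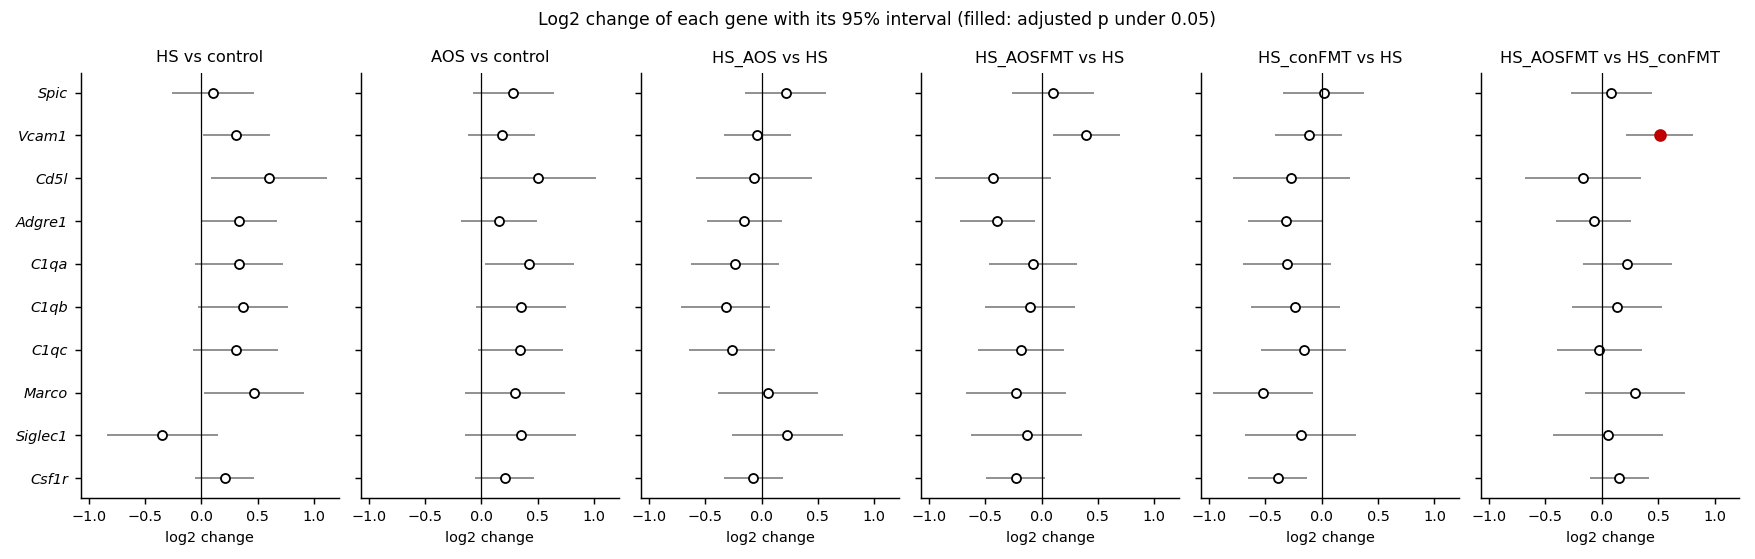
Log2 change of each of the 10 genes (horizontal axes, with bars for the 95% interval of the limma fit) in 6 comparisons, with filled points for an adjusted p under 0.05. Vcam1 in HS_AOSFMT against HS_conFMT, at 0.51, is the one filled point, and the points of HS and AOS against control lie mostly to the right of 0.

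Further genes of these cells were read from lists. Of 19 other red pulp macrophage genes, 18 were tested, and 2 fell in HS_AOSFMT. Slc40a1, which encodes the iron exporter ferroportin, was at 46.4, 38.8 and 46.6 FPKM there, against 53.8, 71.9 and 77.2 in HS, 59.4, 59.6 and 81.2 in control and 68.7, 66.9 and 70.3 in HS_conFMT. The 3 HS_AOSFMT libraries lay below all of these. Slc40a1 fell by 0.60 on the log2 scale against HS (SE 0.17; limma, adjusted p = 0.0408), by 0.64 against HS_conFMT (adjusted p = 0.0404), by 0.58 against control (adjusted p = 0.0388) and by 0.74 against HS_AOS (adjusted p = 0.0166). The first call was lost in 5 of 6 fits without 1 library (adjusted p up to 0.135) and the second in all 6 (0.0506 to 0.139), while the other 2 were not refitted without single libraries. Against AOS (54.26, 64.65 and 55.69 FPKM) Slc40a1 was not called. There the smallest adjusted p among the 18 genes was 0.104 (limma). Hmox1, the haem-degrading enzyme haem oxygenase 1, was at 206, 159 and 148 FPKM in HS_AOSFMT and 287, 350 and 244 in HS_conFMT. It fell by 0.77 (SE 0.21; limma, adjusted p = 0.0460), a call lost in all 6 fits without 1 library (adjusted p up to 0.149). In these comparisons 1.04% to 2.34% of all genes were called lower. Haemoglobin RNA was low in the same 3 libraries, and of 7 erythroid markers tested 1 was called lower against HS and 2 against control. None was called against HS_AOS, or against HS_conFMT (limma, smallest adjusted p = 0.222), whose haemoglobin share overlapped that of HS_AOSFMT. The part of red cell content in the Slc40a1 and Hmox1 results was not tested.

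Of the 7 other marginal zone macrophage genes, none was called in the 6 comparisons planned or against control. Msr1, scavenger receptor A, rose in HS_AOSFMT against HS_AOS (2.25, 3.29 and 3.46 against 1.82, 1.19 and 1.05 FPKM) by 0.77 (SE 0.23; limma, adjusted p = 0.0474). In that comparison, added after the data were seen, 6.42% of all genes were called higher. The Msr1 call was not refitted without single libraries. Control 1 (2.88 FPKM), HS 3 (2.83) and AOS 3 (2.48) lay within the HS_AOSFMT range. Of 10 CSF1 receptor ligands and lineage regulators, Il34 was called higher and Zeb2, a repressor needed for macrophage identity in several tissues, lower in HS_AOSFMT against HS, where 8.08% of all genes were called higher and 1.15% lower. Against control 3 of the 10 were called higher and 1 lower, beside 9.68% and 2.34% of all genes. These were Irf8, a transcription factor of mononuclear phagocytes (0.59, SE 0.14; limma, adjusted p = 0.0183), the liver X receptor gene Nr1h2 (0.32, adjusted p = 0.0329), Il34 (0.46, adjusted p = 0.0331) and Zeb2 (−0.38, adjusted p = 0.0315). Against HS_AOS, Zeb2 was the 1 gene called (−0.37, adjusted p = 0.0416). Zeb2 was at 13.1, 11.3 and 13.6 FPKM against 15.9, 16.8 and 17.01, a fall by 0.37 (SE 0.11; limma, adjusted p = 0.0437), and it fell by 0.43 against HS_conFMT (adjusted p = 0.0306). The Zeb2 calls against HS and HS_conFMT were lost in every fit without 1 library of the groups compared. Spi1, which encodes PU.1, was at 60.7 to 88.2 FPKM over all libraries and was not called. Of 10 classical complement partners of C1q, 9 were tested and none was called in any comparison made. C1ra and C1s1, the proteases that bind C1q, were at 18.3 to 40.1 and 15.9 to 44.8 FPKM, both lowest in control 1.

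Outside these lists, the 5 genes whose log2 levels were most like the mean z score of the 10 were Nfasc (r = 0.87), Gbp2b (0.87), Pvrig (0.85), Ppm1n (0.84) and Acp2 (0.81), over 18 libraries. Nfasc was also most like each of the C1q genes (r = 0.87 to 0.89), although its own level ran only from 3.06 to 4.3 FPKM. The closest gene was Hip1 for Vcam1 (r = 0.91), Gemin5 for Siglec1 (0.91), Trafd1 for Cd5l (0.84), Gbp2b for Adgre1 (0.83), Mtcp1 for Spic (0.82), Tyro3 for Marco (0.80) and Ppm1n for Csf1r (0.80). As the highest of many correlations, these are given as a description. Among the other macrophage genes, Slc11a1 (r = 0.75), the liver X receptor gene Nr1h3 (0.75), Fcna (0.75) and the efferocytosis receptor Mertk (0.75) followed the mean z score most closely. The lowest r of these genes were those of Blvrb (−0.34), Trf (−0.10), Msr1 (0.09), Hmox1 (0.10), Cd163 (0.26) and Slc40a1 (0.29).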

How the data were processed

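RNA sequencing of 18 mouse spleen libraries was read from 1 deposited table. Per the submitters' processing notes the build was mm10 and the aligner Bowtie 0.12.2. No source used here names the counter, the annotation or any filter. The deposited values carry no unit name and were read as FPKM: they have 2 decimals, their sums differ between libraries (666441 to 831448, coefficient of variation 6.14%) and sums weighted by transcript length (GENCODE M21, 97.1% of rows matched) varied by 1.61%. Absolute depth is unknown, and steps in the low values of 38 genes (tolerance 0.15) put relative depths at 0.96 to 1.05, so no counting interval is given. For 3 symbols on 2 lines the line with the higher mean was kept.

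One model of log2(FPKM + 1) on group, holding every library, was fitted with limma 3.58.1 (R 4.3.3) by robust eBayes with a trend (degrees of freedom: residual 12, prior 3.38). Tests were two-sided, with Benjamini-Hochberg adjustment over 12967 genes. The step was tested on simulated data. Correlations used 100000 two-sided permutations. The 10 genes, the gene lists and the tests were chosen with earlier results of these data known. Named beyond the 10 genes were list genes that were called, up to 4 of each list with the smallest F p and the genes most alike. Csf1, Spi1, C1ra, C1s1, Clec4f, Slc11a1, Nr1h3, Fcna, Mertk, Blvrb, Trf and Cd163 were named after their values were seen. Alternatives were another pseudocount (0.1), 2 other filters, 2 other scalings, the compared groups alone, the replicate number as a factor, and fits without single libraries or without HS 1, HS_AOS 1 and control 1. Comparisons of HS_AOSFMT with control, AOS and HS_AOS, of the 4 groups with diet and STZ together, and correlations without each library were added after the data were seen.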

Additional observations from a re-analysis of the deposited data

How the results depend on the processing

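Of the counts of called genes among the 10, those for HS against control, AOS against control, HS_AOS against HS, HS_AOSFMT against HS, HS_conFMT against HS and the interaction were 0 under every alternative run. For HS_AOSFMT against HS_conFMT the count of 1 became 0 with no filter on low values, after rescaling, after quantile normalization and with the compared groups alone, and was 0 to 1 without single libraries. For HS_AOSFMT against control it became 0 with the compared groups alone. For HS_AOSFMT against AOS the count of 2 became 0 with no filter, 1 after rescaling and 1 after quantile normalization, and was 0 to 1 without single libraries. With the replicate number as a block, the count went from 0 to 1 for HS_AOSFMT against HS_AOS (also 1 with the compared groups alone), from 0 to 1 for the 4 groups with diet and STZ, and from 0 to 2 in the F test. Both of the latter were 0 to 1 without single libraries (1 without control 3, and for the F test without HS_conFMT 2). The numbers did not pair the libraries: deviations of same-numbered libraries correlated at −0.37 to 0.49, and 8 of 18 libraries correlated best with their own number. Without single libraries, 9 to 24 pairs of genes passed. The 25 single-gene changes followed were taken from the main fit. They were those of the 10 genes with an unadjusted p under 0.05, and those of listed genes called in a planned comparison. Chosen in this way they were unlikely to change sign, and none did in 390 refits, which share most libraries. Of these refits, 69 lost and 4 gained a call. The cause of these changes was not tested. Counts over all genes moved more, from 1197 to 377 after rescaling for HS_AOSFMT against HS (200 to 751 without single libraries), where the median of all genes went from 0.10 to −0.01. Absolute depth is unknown, so precision rests on 3 libraries a group.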
